A study of Mus musculus with 72 samples.

Results

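The comparison described here sets 3 mouse B-lymphoma lines from relapses after combined CX5461 and everolimus treatment against 3 drug-naive lines, in cytoplasmic RNA before polysome separation (input RNA). These are 6 of the 72 samples of the series, chosen by the treatment and fraction in their labels and not by any measured value. All lines descend from 1 Eμ-Myc lymphoma, clone #107, which carries the MSCV Gfp vector. In Eμ-Myc mice the immunoglobulin heavy-chain enhancer drives a Myc transgene in B cells. The clone was transplanted into C57BL/6 mice, and lymph nodes were taken when animals reached the end of a survival experiment. Combination lines 8, 9 and 31 came from mice given both drugs, and naive lines 6, 33 and 38 came from mice given vehicle. The cells grew in culture for 2 to 3 passages before lysis, and drug doses for this experiment were not given in the labels used here. CX5461 lines 14, 20 and 39 and everolimus lines 4, 12 and 26, made in the same way, and the polysomal RNA of all these lines (4 or more ribosomes) were used only to place the comparison. Every group is 3 lines from 1 clone, so the tests speak of the spread between transplants of that clone. The comparison addresses which RNA levels differ in lymphoma cells that grew back after both drugs.

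CX5461 inhibits RNA polymerase I, the enzyme that transcribes ribosomal RNA genes. Everolimus inhibits mTORC1, the kinase complex that couples nutrients and growth factors to translation through the S6 kinases and the 4E-BP proteins. Myc raises ribosome production, so Eμ-Myc lymphoma cells make ribosomes at a high rate, and both drugs act on that process from different ends. Growth factor receptors also signal through the ERK kinases, which induce immediate early genes and their own feedback inhibitors. The second messenger cAMP acts through protein kinase A and through the EPAC exchange factors encoded by Rapgef3 and Rapgef4.

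The 6 input libraries held 16828381 to 25147599 counts on genes. Pearson correlations of log2 CPM (counts scaled by library total and by the trimmed mean of M-values) were 0.968 to 0.982 among combination lines, 0.952 to 0.978 among naive lines and 0.934 to 0.958 between them. The labels name no processing run. The libraries were taken to fall into 2 runs by the level of the pseudogene Gm9341 alone. It is near 0 CPM of total counts in run A (combination 8 and 9, naive 33 and 38) and over 30 CPM in run B (combination 31, naive 6). What sets the 2 apart was not tested. The B cell genes Cd79a, Cd79b, Cd22 and Pax5 were present in all 6 lines. Cd22 lay between 327 and 393 CPM in the combination lines, against 253 to 315 CPM in the naive lines. Markers of other cells were low. On the scale of total counts, summed T cell markers came to 73.1 to 98.7 CPM in combination and 70.0 to 84.0 CPM in naive lines, nearly all of it Cd2, with Trbc2 at 0. Summed NK cell markers were 0.778 to 1.43 CPM in combination and 0.416 to 2.77 CPM in naive lines, and myeloid markers 8.51 to 10.3 CPM in combination and 10.9 to 16.0 CPM in naive lines. Stromal and endothelial markers came to 37.1 to 52.9 CPM in combination and 42.0 to 67.8 CPM in naive lines, and erythroid markers to 1.83 to 3.54 CPM in combination and 0.882 to 1.83 CPM in naive lines. The defining genes Ccl5, S100a8, S100a9, Elane and Lum were at 0 in all 6. No T, NK, myeloid or erythroid marker was called between the groups, and 1 of 7 tested stromal and endothelial markers was (Cdh5, a log2 fold change of -1.70). The small nuclear RNA Rn7sk took 6.20% to 9.24% of the counts in combination and 3.49% to 4.59% in naive lines. GC content of transcripts also moved with the groups, as given below, and the part of it and of Rn7sk in any single result was not tested.

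Between combination and naive lines, 1956 of 14474 genes tested were called (13.5% of the genes tested; edgeR quasi-likelihood test, Benjamini-Hochberg adjusted p under 0.05). Of these, 1042 were higher in combination lines (7.2%) and 914 were lower (6.31%). In 1939 of the 1956 the 3 combination lines did not overlap the 3 naive lines. All 1956 had the same direction within run A and 1949 had it within run B, where 1 line stands against 1. These counts come from the same libraries as the calls, so they are not separate support for them. The matching shares over all genes tested were not counted. The count was 946 without combination line 8, 766 without combination line 9, 1207 without naive line 6 and 1177 without naive line 33, and 1289 with a GC offset. It was 3666 with the run as a term and 3052 within run A alone. The rule for named genes picked the 12 largest rises and the 12 largest falls among called genes with a mean log2 CPM of at least 1 and groups that did not overlap. All 24 had the same direction in both runs, which the rule fixed in advance by asking for groups that did not overlap. In what follows log2FC is the log2 fold change of combination over naive lines, and CPM are counts scaled by library total and by the trimmed mean of M-values unless they are said to be of total counts. Rises and falls are read against the 7.2% and 6.31% above, since that share of all genes was called in each direction.

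**Figure D1:**
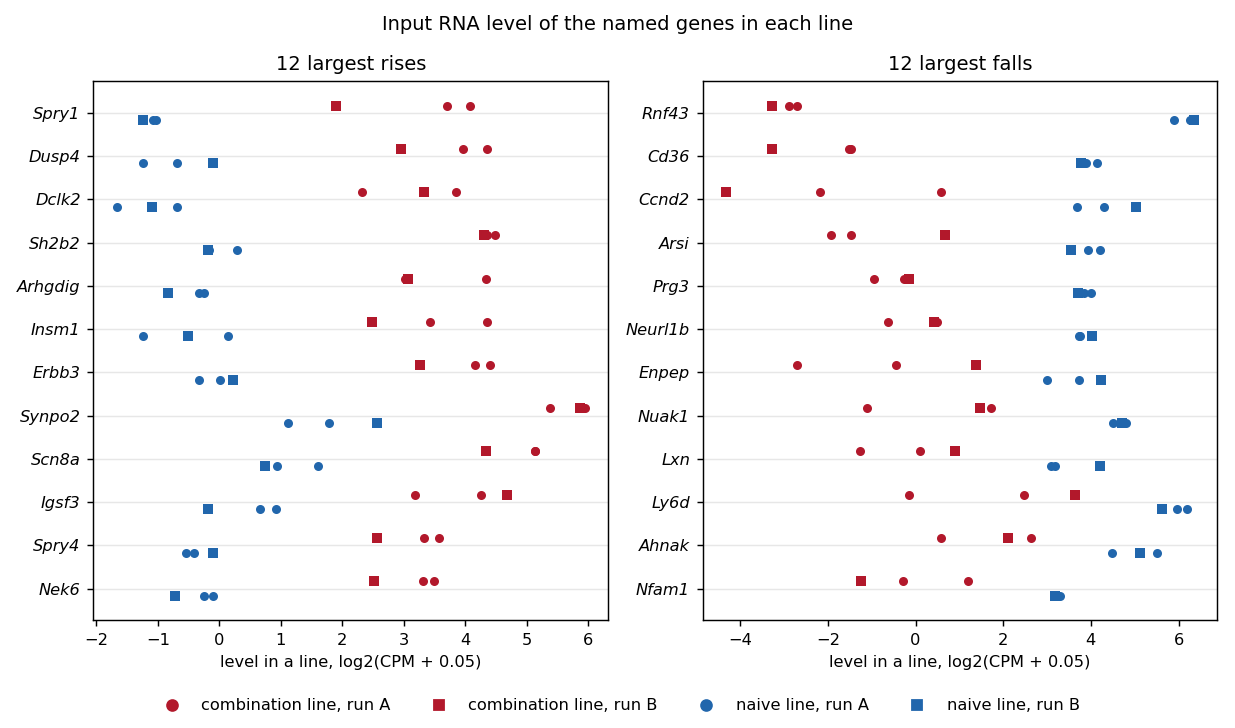
Level of the 12 largest rises (left) and the 12 largest falls (right) in each input library, as log2 of CPM plus 0.05, with combination lines in red above naive lines in blue and the processing run as the marker shape. The rule that picked these genes required the 3 combination lines to lie on one side of the 3 naive lines, and Rnf43 shows the widest gap.

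Feedback inhibitors and early targets of ERK signalling were among the largest rises. Of 28 tested genes of a list of Pim kinases, ERK feedback and immediate early genes, 8 rose and 2 fell, and the list's median log2 fold change was 0.41, against -0.02 over all genes tested. The list's transcripts are rich in GC, with a median of 55.1%, against 49.6% over all genes. In the bin of genes with the most GC, described below, 15.4% were called higher. With a GC offset 5 of the list rose and 2 fell, with a median of 0.33. Spry1 encodes a Sprouty protein that restrains ERK activation by receptor tyrosine kinases (GRCm38 chr3:37639947-37644598, plus strand). It had 12.9, 16.8 and 3.67 CPM in combination lines 8, 9 and 31, against 0.371, 0.424 and 0.441 CPM in naive lines 6, 33 and 38. Every combination line was above every naive line, with line 31 the lowest of the 3 and only 8 to 10 counts in each naive library. The log2 fold change was 4.74 ± 0.61 (SE; adjusted p = 0.00147). Dusp4, a nuclear phosphatase of ERK (chr8:34807297-34819894, plus strand), had 15.5, 20.3 and 7.72 CPM in the combination lines and 0.881, 0.371 and 0.573 CPM in the naive lines in the same order. Again the groups did not overlap, line 31 was the lowest combination line, and the log2 fold change was 4.55 ± 0.52 (SE; adjusted p = 0.000792). Spry4, a second Sprouty gene, had 9.94, 11.8 and 5.86 CPM in combination and 0.881, 0.636 and 0.705 CPM in naive lines, a log2 fold change of 3.62 ± 0.37 (SE; adjusted p = 0.000368). These rises were not particular to the combination lines. CX5461 lines 14, 20 and 39 had 6.01, 9.42 and 5.56 CPM of Spry1 and 14.6, 27.1 and 13.3 CPM of Dusp4. For Spry4 the CX5461 lines had 15.7, 26.1 and 16.3 CPM.

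The immediate early transcription factor genes Egr1 and Egr2 had the same order of combination lines, with line 9 highest and line 31 lowest. Egr2 had 3.33, 4.25 and 1.81 CPM in combination and 0.557, 0.424 and 0.573 CPM in naive lines, and Egr1 had 13.9, 36.04 and 11.1 CPM in combination and 6.73, 2.23 and 1.72 CPM in naive lines. Neither overlapped between groups, although naive line 6 came near combination line 31 for Egr1, and the log2 fold changes were 2.58 ± 0.79 (SE; adjusted p = 0.0489) for Egr2 and 2.52 ± 0.52 (SE; adjusted p = 0.00996) for Egr1. The other members called higher were the phosphatase Dusp1 (log2FC 1.59), the nuclear receptor Nr4a1 (log2FC 0.80) and the kinase Pim2 (log2FC 0.57). Dusp5, another ERK phosphatase, fell, with 59.9, 35.3 and 33.8 CPM in combination and 82.8, 108 and 76.0 CPM in naive lines and a log2 fold change of -1.05 ± 0.24 (SE; adjusted p = 0.0149). Pim1 also fell, by a smaller amount (log2FC -0.47). Spry1, Dusp4, Spry4, Egr1 and Nr4a1 kept their calls in all 6 fits that left out 1 of the 6 lines. The calls of Egr2 (adjusted p = 0.0619), Nr4a1 (adjusted p = 0.0765) and Pim2 (adjusted p = 0.117) were lost with an offset for GC content in each library.

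The promoters of 3 rising genes are shown, for the ERK feedback and immediate early genes that rose together and for the adaptor Sh2b2. Sequences are from RefSeq (GRCm38.p6), from 250 bases before to 50 bases after the start of the transcript, and of the 12 largest rises 7 had an entry. Capitals mark the Egr motif GCGTGGGCG in Sh2b2 and the CArG box, the binding motif of serum response factor, in Egr2. Spry1 (chr3:37639697-37639996, plus strand) held none of the motifs searched. Sh2b2 lies at chr5:136244891-136245190, minus strand, and the Egr2 window, 1 of 5 listed for that gene, at chr10:67537680-67537979, plus strand.
Spry1: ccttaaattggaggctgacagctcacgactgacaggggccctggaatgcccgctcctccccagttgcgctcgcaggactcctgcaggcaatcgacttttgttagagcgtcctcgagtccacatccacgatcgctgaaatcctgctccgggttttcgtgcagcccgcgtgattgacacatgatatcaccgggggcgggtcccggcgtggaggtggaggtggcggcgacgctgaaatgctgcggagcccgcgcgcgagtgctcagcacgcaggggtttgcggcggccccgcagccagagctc
Sh2b2: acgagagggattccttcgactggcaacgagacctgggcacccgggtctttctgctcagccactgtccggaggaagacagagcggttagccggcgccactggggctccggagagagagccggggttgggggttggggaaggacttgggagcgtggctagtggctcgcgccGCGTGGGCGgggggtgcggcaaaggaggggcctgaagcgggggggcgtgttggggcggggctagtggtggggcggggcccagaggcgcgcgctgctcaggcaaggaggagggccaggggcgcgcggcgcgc
Egr2: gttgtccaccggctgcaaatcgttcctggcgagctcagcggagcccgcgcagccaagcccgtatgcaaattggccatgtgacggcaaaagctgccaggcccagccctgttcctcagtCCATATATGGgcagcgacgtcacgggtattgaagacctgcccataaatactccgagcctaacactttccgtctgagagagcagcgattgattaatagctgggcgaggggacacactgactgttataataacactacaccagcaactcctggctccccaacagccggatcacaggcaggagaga
Both strands were searched for CACGTG, TGACGTCA, GCGTGGGCG, GCGGGGGCG and the CArG box, none of which lies within another. Hits are counted per gene, over all promoters listed for it. Among the 7 largest rises with an entry, GCGTGGGCG was in Sh2b2 alone and GCGGGGGCG in Scn8a alone, and the other 3 motifs were in none. Of the 8 rising ERK feedback and Pim genes 5 had an entry, and among them CACGTG was in Dusp1 and in an Egr2 window other than the one shown, TGACGTCA in Dusp1, GCGGGGGCG in Nr4a1 and the CArG box in Egr2. Over all 32851 promoters, counted singly and so not on the same footing as these genes, the shares holding these motifs were 7.15% for CACGTG, 1.79% for TGACGTCA, 0.612% for GCGTGGGCG, 2.91% for GCGGGGGCG and 1.63% for the CArG box.

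Several of the other large rises encode receptors and adaptors. Sh2b2, an adaptor of insulin receptor and JAK signalling, had 22.4, 20.4 and 19.6 CPM in combination lines 8, 9 and 31, against 0.835, 1.17 and 0.837 CPM in naive lines 6, 33 and 38. Its combination values lay within a narrow band and far above the naive ones, and the log2 fold change was 4.46 ± 0.35 (SE; adjusted p = 0.000112). Erbb3, a member of the ErbB receptor family (chr10:128567523-128589652, minus strand), had 21.2, 17.8 and 9.53 CPM in combination and 1.11, 0.954 and 0.749 CPM in naive lines. Line 31 was the lowest combination line, without overlap, and the log2 fold change was 4.10 ± 0.42 (SE; adjusted p = 0.000368). Synpo2, an actin-binding protein, had 61.4, 41.4 and 57.9 CPM in combination and 5.85, 2.12 and 3.39 CPM in naive lines, and Scn8a, a voltage-gated sodium channel, had 34.8, 34.9 and 20.0 CPM in combination and 1.62, 1.85 and 3.00 CPM in naive lines. Both were already measurable in the naive lines and did not overlap, with log2 fold changes of 3.81 ± 0.47 (SE; adjusted p = 0.00127) and 3.78 ± 0.36 (SE; adjusted p = 0.000256).

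The remaining 5 rises were near 1 CPM in the naive lines, at most 1.85. They were the doublecortin-like kinase gene Dclk2 (log2FC 4.50), the GDP dissociation inhibitor gene Arhgdig (log2FC 4.14), the zinc-finger factor gene Insm1 (log2FC 4.11), the membrane protein gene Igsf3 (log2FC 3.66) and the mitotic kinase gene Nek6 (log2FC 3.57). Of the 12 rises, 4 lie on chromosome 3 (Spry1, Dclk2, Synpo2 and Igsf3). All 12 kept their calls with a GC offset, with the run as a term and in every fit without 1 line. Each of the 12 was also called between CX5461 and naive lines, and 8 were between everolimus and naive lines. None was called between combination and CX5461 lines, and 4 were between combination and everolimus lines.

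The largest fall was Rnf43, which encodes a ubiquitin ligase that clears Frizzled receptors and so limits Wnt signalling (chr11:87662722-87735539, plus strand). It had 0.104, 0.085 and 0.0533 CPM in combination lines 8, 9 and 31, against 81.7, 76.4 and 59.6 CPM in naive lines 6, 33 and 38. Its 3 combination libraries together held 5 counts and its naive libraries 4556, a ratio of 0.00113 (95% exact interval 0.000365 to 0.00263, counting error only). The fitted log2 fold change of -9.70 (adjusted p = 0.00612) depends on the prior count at so low a level. CX5461 lines had 0.0853, 0.116 and 0.207 CPM and everolimus lines 4, 12 and 26 had 21.2, 0.0896 and 0 CPM, and 1 everolimus line of 3 had a clear level. Cd36, a receptor for fatty acid uptake, had 0.312, 0.298 and 0.0533 CPM in combination and 13.5, 17.5 and 14.8 CPM in naive lines, a log2 fold change of -6.04 ± 0.69 (SE; adjusted p = 0.000753). Ccnd2, cyclin D2, which activates the kinases that start the cell cycle (chr6:127125162-127152193, minus strand), had 1.46, 0.17 and 0 CPM in combination and 32.4, 12.8 and 19.8 CPM in naive lines. Line 8 held most of what remained, line 31 had no count, and the log2 fold change was -5.34 ± 0.81 (SE; adjusted p = 0.00286).

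Among the other falls, Nfam1 encodes an activating receptor of B cells, and Ly6d and Enpep encode surface markers of early B lineage cells. Nfam1 had 2.24, 0.765 and 0.373 CPM in combination and 8.95, 9.75 and 9.29 CPM in naive lines (log2FC -3.05 ± 0.46 SE, adjusted p = 0.00286). Ly6d had 5.52, 0.85 and 12.4 CPM in combination and 49.0, 73.6 and 62.5 CPM in naive lines (log2FC -3.32 ± 0.82 SE, adjusted p = 0.0214). The combination lines differed widely from one another for Ly6d, with line 9 lowest and line 31 highest, and did not reach the naive lines. Prg3, a granule protein gene, had 0.781, 0.468 and 0.852 CPM in combination and 13.0, 14.3 and 16.0 CPM in naive lines (log2FC -4.37 ± 0.50 SE, adjusted p = 0.000753). Arsi (log2FC -4.48), Neurl1b (log2FC -3.74), Enpep (log2FC -3.59), Nuak1 (log2FC -3.56), Lxn (log2FC -3.49) and Ahnak (log2FC -3.12) complete the 12. All 12 falls kept their calls with a GC offset, and 7 kept them in every fit without 1 line. For Arsi, Enpep, Nuak1, Lxn and Ly6d the highest adjusted p over those fits was 0.0681 to 0.141. Of the 12 falls, 8 were also called between CX5461 and naive lines, and 2 between everolimus and naive lines.

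Rnf43 was 1 of 26 tested members of a list of Wnt and Notch genes, of which 3 rose and 3 fell. Hey1, a repressor induced by Notch, had 13.7, 10.4 and 7.62 CPM in combination and 0.0464, 0.212 and 0.308 CPM in naive lines. With 651 counts over the combination libraries and 12 over the naive ones, the ratio was 55.7 (95% exact interval 31.7 to 108, counting error only), and the fitted log2 fold change was 5.75 ± 0.86 (SE; adjusted p = 0.00268). Lgr5, a receptor for R-spondins and the best known stem cell marker of the intestine, had 25.4, 29.4 and 32.6 CPM in combination and 5.52, 2.38 and 3.79 CPM in naive lines. Its combination values were close to each other and far from the naive ones, at a log2 fold change of 2.90 ± 0.28 (SE; adjusted p = 0.000257). Notch2 rose less (log2FC 0.69), and the Wnt co-receptor gene Lrp6 (log2FC -0.97) and Apc (log2FC -0.65) fell. Of the 3 rises, 2 lie on chromosome 3, and 1 of the 3 falls lies on chromosome 6. The shifts of these chromosomes are described below, and their median log2 fold changes were 0.38 and -0.49. The calls of Notch2 (adjusted p = 0.0932) and Apc (adjusted p = 0.0645) were lost with a GC offset.

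The cAMP list held 34 tested genes, of which 6 rose and 3 fell, with a median of 0.17, and 3 to 6 rose without any 1 line. Of the 34, 7 lie on chromosome 3, as do 2 of the 6 rises, Prkacb among them. Adcy3, an adenylate cyclase that makes cAMP (chr12:4133103-4213525, plus strand), had 33.8, 25.2 and 20.2 CPM in combination and 8.44, 9.01 and 8.11 CPM in naive lines. Every combination line was above every naive line, and the log2 fold change was 1.63 ± 0.20 (SE; adjusted p = 0.00124). Pde8a, a phosphodiesterase that degrades cAMP (chr7:81213596-81334533, plus strand), moved in the opposite sense, with 0.416, 0.425 and 0.266 CPM in combination and 8.40, 4.08 and 4.32 CPM in naive lines and a log2 fold change of -3.89 ± 0.44 (SE; adjusted p = 0.000722). Rapgef3, which encodes EPAC1, had 17.8, 27.8 and 15.8 CPM in combination and 7.10, 11.8 and 7.05 CPM in naive lines. The groups did not overlap, the log2 fold change was 1.25 ± 0.38 (SE; adjusted p = 0.047), and the difference was 1.28 within run A and 1.14 within run B. This call was lost with a GC offset (log2 fold change 1.02, adjusted p = 0.0761) and in the least favourable fit without 1 line (adjusted p = 0.184). Rapgef4, which encodes EPAC2, did not pass the count filter, with 6, 12 and 10 counts in combination lines 8, 9 and 31, against 1, 2 and 7 counts in naive lines 6, 33 and 38.

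The prostaglandin receptor gene Ptger4 (log2FC 1.13), the catalytic subunit gene of protein kinase A Prkacb (log2FC 0.76) and the coactivator genes Crtc1 (log2FC 0.74) and Crtc2 (log2FC 0.72) rose too. Rap1b, a small GTPase activated by EPAC, fell (log2FC -0.73), as did Creb1 (log2FC -0.48), the transcription factor phosphorylated by protein kinase A. Creb1 (adjusted p = 0.718), Rap1b (adjusted p = 0.209) and Crtc1 (adjusted p = 0.0725) lost their calls with a GC offset. Adcy3, Pde8a, Crtc1 and Crtc2 kept theirs in every fit without 1 line.

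Adm encodes adrenomedullin, a secreted peptide whose receptor raises cAMP (chr7:110627661-110629820, plus strand). It was the only gene called in all 3 comparisons, against naive, everolimus and CX5461 lines, and was higher in combination lines in each. These comparisons share the combination libraries. Adm had 4.27, 7.06 and 5.01 CPM in combination lines 8, 9 and 31, 0.597, 0.52 and 1.04 CPM in CX5461 lines, 0.713, 0.672 and 0.558 CPM in everolimus lines and 1.62, 1.22 and 1.15 CPM in naive lines. No combination line was under 4 CPM and no other line of the 12 was over 2 CPM. The log2 fold changes were 2.03 ± 0.32 (SE; adjusted p = 0.00316) against naive, 3.06 ± 0.34 (SE; adjusted p = 0.00555) against everolimus and 2.90 ± 0.33 (SE; adjusted p = 0.0105) against CX5461 lines.

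Genes of ribosome production and mTORC1 signalling, on which the drugs act, were called in both directions, as were genes at large. The share called was 7.32% of cytosolic ribosomal protein genes and 15.3% of ribosome biogenesis factors, against 13.5% of all genes tested. It was 20.0% of translation factors, 27.7% of mTORC1 and PI3K genes and 30.0% of the RNA polymerase I machinery. Of 20 tested genes of the RNA polymerase I machinery, 4 rose and 2 fell, with a median of 0.23. Polr1b, the second largest subunit, had 146, 145 and 137 CPM in combination and 118, 96.6 and 102 CPM in naive lines (log2FC 0.43 ± 0.12 SE, adjusted p = 0.0301). Polr1a, the largest subunit, had 99.4, 106 and 100.3 CPM in combination and 206, 152 and 142 CPM in naive lines (log2FC -0.71 ± 0.15 SE, adjusted p = 0.0108). The 2 largest subunits of 1 enzyme moved in opposite directions without overlap between groups. Polr1a lies on chromosome 6, where most genes were lower, as described below. Rrn3, the initiation factor that recruits the polymerase, had a log2 fold change of -0.16 ± 0.17 (SE; adjusted p = 0.542), and Ubtf, which binds the promoter of ribosomal RNA genes, had -0.08 ± 0.11 (SE; adjusted p = 0.689), neither past the threshold. Of the 6 called genes of the machinery, Polr1a alone kept its call with a GC offset (adjusted p = 0.0109) and in every fit without 1 line. The list had 0 to 4 rises without any 1 line and 6 with the run as a term.

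Of 72 tested ribosome biogenesis factors 7 rose and 4 fell, with a median of 0.04, and the counts were 3 to 6 and 1 to 6 without any 1 line and 15 and 10 with the run as a term. The rises included Noc4l (log2FC 0.89) and Bop1 (log2FC 0.86), processing factors of the small and large subunit, and the falls included Rpf2 (log2FC -0.86) and Bms1 (log2FC -0.71). Of the 4 falls, 2 lie on chromosome 6, Bms1 among them. Of 82 cytosolic ribosomal protein genes 2 rose, Rpl34 (log2FC 1.06) and Rps27 (log2FC 0.65), and 4 fell, Rpl23, Rps24, Rpl26 and Rpl30, while the run as a term gave 10 rises and 6 falls. Both rises lie on chromosome 3, and the list's share of called genes was below that of all genes tested. Reads of ribosomal protein genes can be shared with processed pseudogenes, so these small changes are uncertain. Of 50 translation factors 6 rose and 4 fell. Eef2, which moves the ribosome along the mRNA, had 10409, 9821 and 8598 CPM in combination and 5498, 6889 and 6258 CPM in naive lines (log2FC 0.63 ± 0.16 SE, adjusted p = 0.0224). Of the 10 called translation factors, Eif4e3 (log2FC -1.17) alone kept its call with a GC offset (adjusted p = 0.0366), and it lies on chromosome 6. None of the 10 kept its call in every fit without 1 line, which gave 0 to 6 rises and 0 to 6 falls, while the run as a term gave 13 rises and 10 falls.

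Of 47 tested genes of mTORC1 and PI3K signalling 8 rose and 5 fell, with 2 to 5 rises and 1 to 4 falls without any 1 line and 14 rises and 6 falls with the run as a term. Sesn2, an inhibitor of mTORC1 induced under amino acid stress, had 23.4, 32.2 and 23.3 CPM in combination and 12.7, 13.99 and 11.7 CPM in naive lines (log2FC 1.04 ± 0.18 SE, adjusted p = 0.00436). Tsc2, part of the complex that restrains mTORC1, had 79.6, 79.5 and 81.3 CPM in combination and 62.4, 52.5 and 48.7 CPM in naive lines (log2FC 0.55 ± 0.11 SE, adjusted p = 0.00823). Both inhibitors were higher in each combination line than in any naive line. Rps6kb1, the S6 kinase gene, fell (log2FC -0.68 ± 0.15 SE, adjusted p = 0.0117), and Pik3r1, the regulatory subunit of PI3K, fell too (log2FC -0.69 ± 0.14 SE, adjusted p = 0.00982). Mtor itself had 289, 369 and 359.8 CPM in combination and 481, 527 and 478 CPM in naive lines, without overlap but not past the threshold (log2FC -0.55 ± 0.21 SE, adjusted p = 0.107). Eif4ebp1, the 4E-BP1 gene, had a log2 fold change of -0.16 ± 0.23 (SE; adjusted p = 0.689). A GC offset ended the calls of Tsc2 (adjusted p = 0.133) and Rps6kb1 (adjusted p = 0.185) but not those of Sesn2 and Pik3r1.

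**Figure D2:**
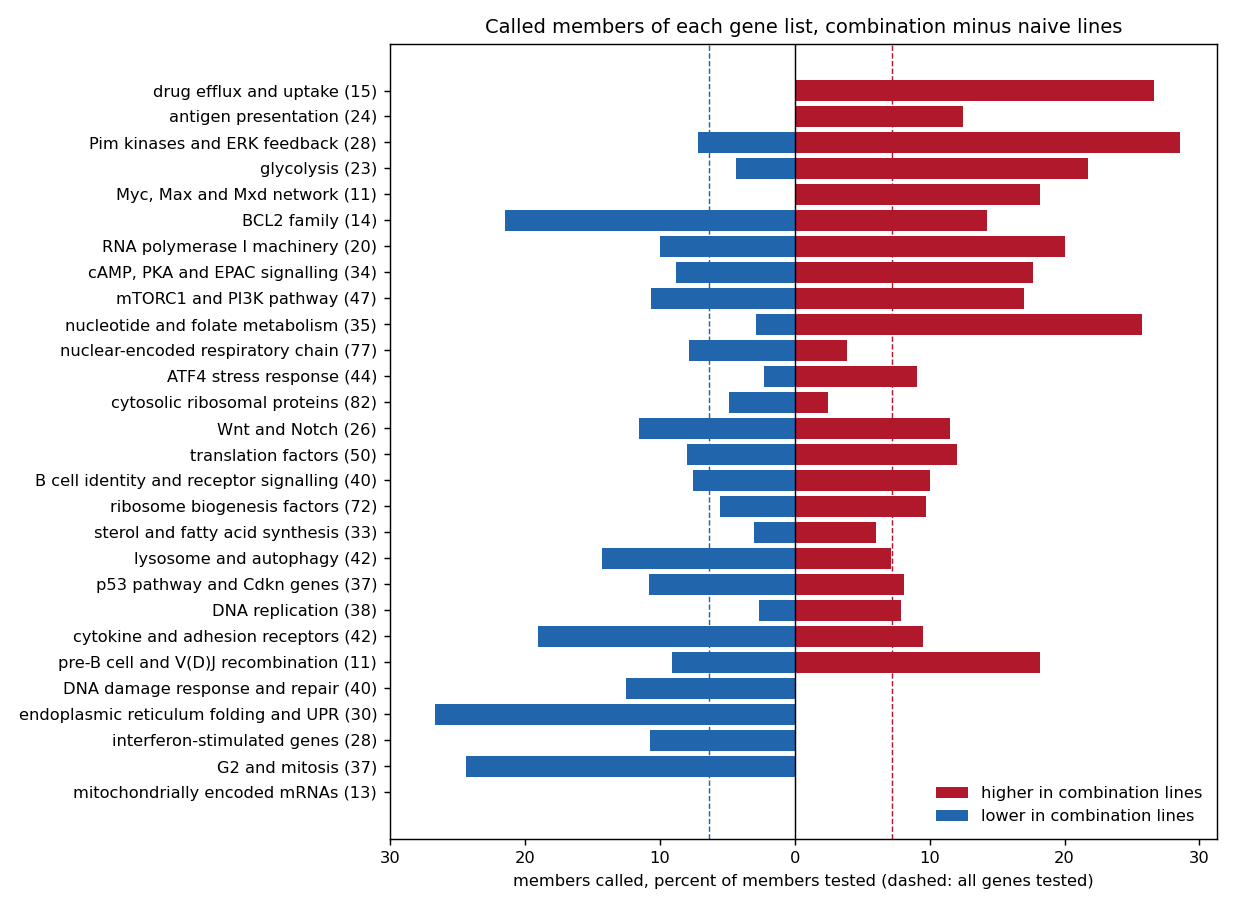
Share of tested members called higher (red, to the right) or lower (blue, to the left) in combination lines for each gene list with at least 10 tested members, ordered by median log2 fold change, with the number tested in brackets. Dashed lines mark the shares over all genes tested, 7.2% higher and 6.31% lower. Drug efflux, ERK feedback, nucleotide and glycolysis lists reach farthest to the right, and endoplasmic reticulum folding and mitosis lists have calls on the left side alone, as do the DNA repair and interferon lists.

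Myc was higher in combination lines, with 1717, 1539 and 1336 CPM, against 941, 794 and 769 CPM in naive lines. The groups did not overlap and the log2 fold change was 0.87 ± 0.16 (SE; adjusted p = 0.00606). The counts sum the transgene and the mouse's own Myc gene, which cannot be told apart here. Mlxip, a partner of the Max-like factor Mlx, was the other called gene of 11 tested in the Myc network (log2FC 0.69). In the p53 list of 37 tested genes 3 rose and 4 fell. Cdkn1a, the p21 inhibitor of cyclin-dependent kinases, had 6.56, 1.66 and 6.87 CPM in combination and 19.1, 15.7 and 15.9 CPM in naive lines (log2FC -1.76 ± 0.47 SE, adjusted p = 0.0302). All combination lines were below all naive lines, with line 9 far lower than lines 8 and 31. Pmaip1, the pro-death gene Noxa, also fell (log2FC -1.16), whereas Cdkn2b (log2FC 1.69) and Ephx1 (log2FC 3.36) rose from low levels. Trp53 (log2FC 0.35 ± 0.15 SE, adjusted p = 0.139), Mdm2 (log2FC -0.34 ± 0.16 SE, adjusted p = 0.163) and Cdkn2a (log2FC 0.29 ± 0.49 SE, adjusted p = 0.727) did not pass the threshold.

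Among 14 tested BCL2 family genes, the pro-death gene Bmf (log2FC 1.03) and Bcl2l12 (log2FC 0.59) rose, and Pmaip1, Bid (log2FC -0.52) and Bcl2l13 (log2FC -0.44) fell. Of the 3 falls, 2 lie on chromosome 6, Bid among them, where the median log2 fold change was -0.49. The survival genes Bcl2 (log2FC -0.22 ± 0.24 SE, adjusted p = 0.572) and Mcl1 (log2FC 0.32 ± 0.17 SE, adjusted p = 0.22) did not pass the threshold. Bmf (adjusted p = 0.0645), Bcl2l12 (adjusted p = 0.18) and Pmaip1 (adjusted p = 0.0784) lost their calls with a GC offset. No called gene of the BCL2 or p53 list kept its call in every fit without 1 line, while Myc did, with a highest adjusted p of 0.0306.

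Of 37 tested genes of G2 and mitosis none rose, 9 fell and 28 had negative log2 fold changes, with a median of -0.35. Mad2l1, a component of the spindle checkpoint (chr6:66535390-66547220, plus strand), had 36.8, 42.0 and 59.1 CPM in combination and 137, 117 and 96.2 CPM in naive lines (log2FC -1.34 ± 0.20 SE, adjusted p = 0.00268). Mki67, the proliferation antigen Ki-67, had 215, 186 and 239.9 CPM in combination and 524, 524 and 354 CPM in naive lines (log2FC -1.13 ± 0.20 SE, adjusted p = 0.00503). Neither gene overlapped between groups, and line 31 was the highest combination line for Mad2l1 and Mki67. Cenpf (log2FC -1.11), Ttk (log2FC -0.996), Kif11 (log2FC -0.97), Nusap1 (log2FC -0.89), Prc1 (log2FC -0.87), Kif23 (log2FC -0.80) and Foxm1 (log2FC -0.72) were the other 7. Top2a, the mitotic topoisomerase, had 76.8, 135 and 212 CPM in combination and 405, 233 and 232 CPM in naive lines and missed the threshold (log2FC -1.04 ± 0.33 SE, adjusted p = 0.0541), but passed it with the run as a term (log2FC -1.06, adjusted p = 0.00507). With that term 17 members of the list fell, and without any 1 line 4 to 15 fell. The list's transcripts are poor in GC, with a median of 47.4%, against 49.6% over all genes. With a GC offset the median was -0.32, and Mad2l1, Mki67, Cenpf and Foxm1 kept their calls, so 4 of 9 remained. Of these 4, Mad2l1 and Foxm1 lie on chromosome 6.

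In DNA repair, 5 of 40 tested genes fell and none rose, with 0 to 9 falls without any 1 line and 12 with the run as a term. Chek1 (log2FC -0.92), Wrn (log2FC -0.85), Fancd2 (log2FC -0.73), Rad52 (log2FC -0.50) and Top1 (log2FC -0.53), the topoisomerase that relaxes DNA ahead of transcription, made up the 5. Fancd2 alone kept its call with a GC offset (adjusted p = 0.0436). Of the 5, 2 lie on chromosome 6, Fancd2 among them. In DNA replication, Pola2 (log2FC 0.62), Pold2 (log2FC 0.58) and Rfc2 (log2FC 0.44) rose and Rpa3 (log2FC -1.12) fell among 38 tested, and Pola2 alone kept its call with a GC offset (adjusted p = 0.00313). Rpa3 lies on chromosome 6.

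Of 35 tested genes of nucleotide and folate metabolism 9 rose and 1 fell, with a median of 0.16. Cad, the enzyme that starts pyrimidine synthesis (chr5:31054780-31078479, plus strand), had 703, 1030.2 and 698 CPM in combination and 431, 495 and 469 CPM in naive lines (log2FC 0.80 ± 0.17 SE, adjusted p = 0.0104). Gart, an enzyme of purine synthesis, had 309, 347 and 298 CPM in combination and 187, 187 and 187 CPM in naive lines (log2FC 0.77 ± 0.12 SE, adjusted p = 0.00316). Neither overlapped, and the 3 naive values of Gart were nearly equal. Aprt, which salvages adenine (log2FC 1.10), Tk1, which salvages thymidine (log2FC 0.65), Pfas (log2FC 0.62), Samhd1 (log2FC 0.60), Shmt1 (log2FC 0.51), Adsl (log2FC 0.45) and Impdh2 (log2FC 0.44) were the other rises, and Prps2 fell (log2FC -0.47). The count of rises was also 9 with a GC offset, under which Impdh2 (adjusted p = 0.131) and Prps2 (adjusted p = 0.458) lost their calls, and 5 to 6 in the fits without 1 line.

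In the ATF4 list 4 of 44 rose and 1 fell. Phgdh, the first enzyme of serine synthesis (chr3:98313170-98339990, minus strand), had 1021, 1100.0 and 901 CPM in combination and 364, 529 and 499 CPM in naive lines (log2FC 1.12 ± 0.20 SE, adjusted p = 0.00577). It was higher in each combination line, kept its call with a GC offset, and lies on chromosome 3, as does Sars (log2FC 0.70). Among 23 glycolysis genes 5 rose and 1 fell. Slc16a1, a lactate transporter gene on chromosome 3, had 291, 339 and 346 CPM in combination and 189, 206 and 196 CPM in naive lines (log2FC 0.72 ± 0.15 SE, adjusted p = 0.0112). Aldoc (log2FC 1.58), Pdk1 (log2FC 0.60), the glucose transporter gene Slc2a1 (log2FC 0.58) and Pfkm (log2FC 0.48) were the other rises, and Tpi1 on chromosome 6 was the fall (log2FC -0.72). The calls of Slc2a1 (adjusted p = 0.0789) and Pfkm (adjusted p = 0.135) were lost with a GC offset, and the count of rises was 1 to 5 without any 1 line and 10 with the run as a term. Of 77 nuclear-encoded respiratory chain genes 3 rose and 6 fell, and 4 of the 6 falls lie on chromosome 6 (Ndufa5, Cycs, Ndufa4 and Ndufa9). A GC offset ended the calls of the rises Ndufs7 (adjusted p = 0.19), Atp5g2 (adjusted p = 0.175) and Cyc1 (adjusted p = 0.22) and of the falls Ndufa4 (adjusted p = 0.0807), Ndufa9 (adjusted p = 0.0621), Uqcrb (adjusted p = 0.0545) and Cox7b (adjusted p = 0.252). Without any 1 line 1 to 6 of the list rose and 3 to 9 fell, and with the run as a term 13 rose and 7 fell. None of 13 mitochondrially encoded mRNAs was called, although 12 had negative log2 fold changes with a median of -0.39, which was 0.05 with a GC offset. With the run as a term 5 of the 13 fell.

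Of 30 tested genes of protein folding in the endoplasmic reticulum and the unfolded protein response none rose and 8 fell, with a median of -0.19. Pdia4, a disulfide isomerase (chr6:47796141-47813430, minus strand), had 45.8, 49.1 and 46.7 CPM in combination and 110.2, 97.3 and 93.1 CPM in naive lines (log2FC -1.09 ± 0.14 SE, adjusted p = 0.00153). Edem1, which marks misfolded proteins for degradation (chr6:108828641-108859356, plus strand), had 25.7, 23.3 and 24.3 CPM in combination and 50.3, 50.2 and 46.2 CPM in naive lines (log2FC -1.002 ± 0.10 SE, adjusted p = 0.000368). Both were tight within each group, and both lie on chromosome 6. Away from that chromosome, Dnajc3 (log2FC -0.94), Hsp90b1 (log2FC -0.99), Pdia3 (log2FC -0.82), Dnajb9 (log2FC -0.72), Hspa5 (log2FC -0.54) and Dnajb11 (log2FC -0.42) fell. With a GC offset Hsp90b1 (adjusted p = 0.052), Pdia3 (adjusted p = 0.0968), Dnajb9 (adjusted p = 0.199) and Hspa5 (adjusted p = 0.179) lost their calls and the count was 6, 2 of them members not called before. Without any 1 line 3 to 6 of the list fell.

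Of 42 lysosome and autophagy genes 3 rose and 6 fell, with 1 to 6 falls without any 1 line. Hexa, a lysosomal hexosaminidase, had 30.9, 42.3 and 34.8 CPM in combination and 78.3, 117 and 107 CPM in naive lines (log2FC -1.49 ± 0.24 SE, adjusted p = 0.00333). All combination lines were below all naive lines. Of 15 tested drug efflux and uptake genes 4 rose and none fell, with a median of 0.52, and 1 to 3 rose without any 1 line. Abcb1b, which with Abcb1a encodes the P-glycoprotein pump of rodents, had 7.91, 12.9 and 6.12 CPM in combination and 5.38, 1.80 and 3.30 CPM in naive lines (log2FC 1.36 ± 0.38 SE, adjusted p = 0.0364). Its lowest combination line was above the highest naive line by a small margin. Abcc1 (log2FC 0.65 ± 0.13 SE, adjusted p = 0.00749), Abca1 (log2FC 1.69) and Abcg1 (log2FC 0.52) were the other rises. Abcb1a (log2FC 0.56 ± 0.48 SE, adjusted p = 0.47) and Abcg2 (log2FC -0.26 ± 0.78 SE, adjusted p = 0.847) lay near 1 CPM and did not pass the threshold. Abcc1 kept its call with a GC offset and in every fit without 1 line.

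Genes of B cell development were called in both directions. The share called was 17.5% of tested B cell identity genes and 27.3% of 11 pre-B cell genes, against 13.5% of all genes tested. Rag1, which with Rag2 cuts immunoglobulin genes for V(D)J recombination (chr2:101638282-101649501, minus strand), had 64.9, 66.1 and 53.9 CPM in combination and 6.59, 5.78 and 8.15 CPM in naive lines (log2FC 3.17 ± 0.29 SE, adjusted p = 0.00024). Rag2 had 9.52, 14.1 and 16.6 CPM in combination and 7.52, 4.13 and 5.42 CPM in naive lines (log2FC 1.23 ± 0.24 SE, adjusted p = 0.00743). Both rose in all 3 lines, Rag1 by far the more, and both kept their calls with a GC offset and in every fit without 1 line. Cd93, a surface receptor of immature B cells, fell, with 376, 245 and 273 CPM in combination and 596, 708 and 582 CPM in naive lines (log2FC -1.08 ± 0.18 SE, adjusted p = 0.00399). Of 40 tested B cell identity genes 4 rose and 3 fell. Bcl6, the repressor that directs germinal centre cells, rose (log2FC 1.87) and was highest in line 9, and Bach2 (log2FC 0.87), Blnk (log2FC 0.65) and Irf4 (log2FC 0.64) rose too. Spib, an Ets factor of B cells, had 110.3, 79.7 and 152 CPM in combination and 295, 371 and 314 CPM in naive lines (log2FC -1.52 ± 0.23 SE, adjusted p = 0.00286), and Ms4a1, which encodes CD20, had 2.45, 1.66 and 1.76 CPM in combination and 10.9, 8.48 and 5.51 CPM in naive lines (log2FC -2.09 ± 0.61 SE, adjusted p = 0.0426). Foxp1 on chromosome 6 fell as well (log2FC -0.64). Ms4a1 (adjusted p = 0.0926) and Foxp1 (adjusted p = 0.0509) lost their calls with a GC offset.

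Of 24 antigen presentation genes 3 rose and none fell, and all 3 belong to MHC class II. With the run as a term 7 rose. H2-Ab1 had 739, 486 and 368 CPM in combination and 149, 193 and 159.7 CPM in naive lines (log2FC 1.67 ± 0.49 SE, adjusted p = 0.0432), and H2-Eb1 had 79.2, 54.6 and 44.6 CPM in combination and 7.38, 10.5 and 7.71 CPM in naive lines (log2FC 2.80 ± 0.83 SE, adjusted p = 0.0432). Every combination line was above every naive line for both, in the order 8, 9 and 31 from high to low. With a GC offset H2-Ab1 (adjusted p = 0.0937) and H2-Eb1 (adjusted p = 0.0541) lost their calls, and H2-Ob (log2FC 1.07) kept its own. None of the 3 kept its call in every fit without 1 line, with highest adjusted p of 0.126 to 0.16. Of 28 interferon-stimulated genes none rose and 3 fell, Isg20 (log2FC -1.22), Eif2ak2 (log2FC -1.08) and Parp14 (log2FC -0.87).

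Among 42 tested cytokine and adhesion receptors 4 rose and 8 fell, with 2 to 4 rises and 2 to 6 falls without any 1 line. Tnfrsf13c, the receptor for the B cell survival factor BAFF (chr15:82221743-82224369, minus strand), had 20.8, 19.6 and 20.1 CPM in combination and 72.4, 69.4 and 54.0 CPM in naive lines (log2FC -1.70 ± 0.19 SE, adjusted p = 0.000654). Itgal, the alpha chain of the integrin LFA-1, had 38.6, 43.4 and 35.9 CPM in combination and 90.0, 70.6 and 65.7 CPM in naive lines (log2FC -0.94 ± 0.16 SE, adjusted p = 0.00497). The groups did not overlap, and the 3 combination lines were close to each other for both genes. Il6st (log2FC -0.78), Cd44 (log2FC -0.75), Itga4 (log2FC -0.61), Cxcr4 (log2FC -0.59), Itgb1 (log2FC -0.56) and Ifnar1 (log2FC -0.47) also fell, and S1pr2 (log2FC 1.58), Itga6 (log2FC 1.30), Flt3 (log2FC 1.02) and Ccr7 (log2FC 0.96) rose. With a GC offset Cd44 (adjusted p = 0.126), Cxcr4 (adjusted p = 0.129), Il6st (adjusted p = 0.0814), Itga4 (adjusted p = 0.363) and Itgb1 (adjusted p = 0.106) lost their calls.

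The lines shared an immunoglobulin heavy-chain segment and differed in their kappa light-chain segments. Ighm, the heavy-chain constant gene of IgM, did not differ past the threshold (log2FC -0.13 ± 0.25 SE, adjusted p = 0.751), and the heavy-chain segment Ighv2-2 was present in all 6 libraries at 108 to 139 CPM of total counts in combination and 131 to 157 in naive lines. Igkc, the kappa light-chain constant gene on chromosome 6, had 119, 101 and 50.6 CPM in combination and 293, 411 and 325 CPM in naive lines (log2FC -1.93 ± 0.26 SE, adjusted p = 0.00188). The kappa segment Igkv1-117 had 0.159 to 0.278 CPM of total counts in combination and 142 to 200.3 in naive lines, whereas Igkv5-43 had 31.1 to 39.4 in combination and 0.475 to 2.15 in naive lines. This was not particular to the combination lines. On the same scale Igkv1-117 had 0.0423, 0.0635 and 0 in CX5461 lines 14, 20 and 39. In everolimus lines 4, 12 and 26 it had 67.1, 0.269 and 1.18. Igkv5-43 had 14.1, 74.1 and 17.3 in those CX5461 lines and 14.5, 28.3 and 77.3 in those everolimus lines. These segments were chosen after their values were seen. Within the combination group, Igkv4-79 had 43.4, 38.6 and 0.111 CPM of total counts in lines 8, 9 and 31, and everolimus line 26 had 27.7. Iglc1 did not pass the count filter, and Iglc2 did not pass the threshold (log2FC -1.36 ± 0.64 SE, adjusted p = 0.171).

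The direction of change went with the GC content of the transcript. Called genes that were higher had a median GC content of 54.1% and those that were lower 45.0%, against 49.6% over all genes tested, of which 93.2% had a value. Genes with a value were split by GC content into 5 bins of equal size. In the bin with the least GC, 1.30% were called higher and 13.6% lower. In the bin with the most GC, 15.4% were called higher and 2.63% lower. Across genes, which are not independent replicates, the log2 fold change and GC content had a Spearman correlation of 0.43. By library, the deviation from the mean of all 12 libraries had a Spearman correlation with GC content of 0.38, 0.25 and -0.16 in combination lines 8, 9 and 31, against -0.50, -0.18 and -0.29 in naive lines 6, 33 and 38. With a GC offset for each library 1289 genes were called, 702 higher and 587 lower, of which 1051 were among the 1956. The part of GC content in the single calls was not tested beyond this offset.

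**Figure D3:**
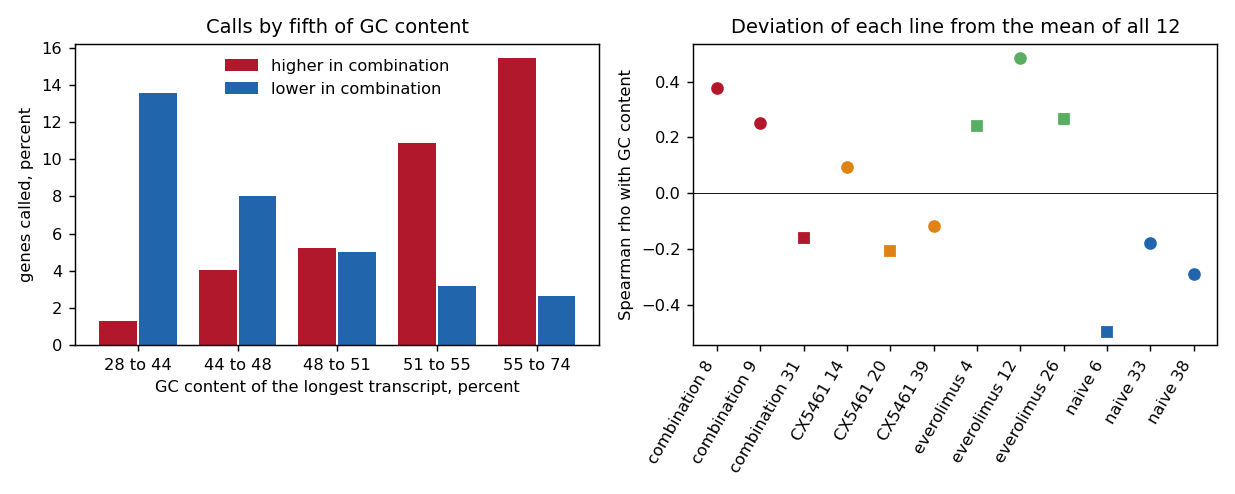
Left, percent of genes called higher (red) and lower (blue) in combination lines in 5 equal bins of transcript GC content. Right, Spearman correlation between GC content and the deviation of each input library from the mean of all 12, with run A as circles and run B as squares. Calls higher climb from 1.30% to 15.4% over the bins while calls lower drop from 13.6% to 2.63%, and naive line 6 lies lowest of the 12 libraries.

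Called genes were not spread evenly over the chromosomes. Of 631 tested genes on chromosome 6, 202 were lower in combination lines (32.0%) and 16 were higher, and these 202 are 22.1% of all genes called lower. Of 619 tested genes on chromosome 3, 148 were higher (23.9%) and 9 were lower, and these 148 are 14.2% of all genes called higher. Per line, the median log2 difference from the mean of the naive lines was taken over genes with a mean log2 CPM of at least 2. On chromosome 6 (401 such genes) it was -0.50, -0.45 and -0.53 in combination lines 8, 9 and 31, against 0.06, 0.02 and -0.06 in naive lines 6, 33 and 38. On chromosome 3 (439 genes) it was 0.40, 0.37 and 0.45 in combination lines and 0.06, -0.01 and -0.05 in naive lines. Each combination line lay outside the naive range on both chromosomes, and 85.3% of the chromosome 6 genes had a negative log2 fold change. An exact permutation test of 3 lines against 3 gave a two-sided p of 0.1 for each, the smallest such a design allows. The same p was reached by chromosomes 1, 4, 5, 7, 15 and 19.

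**Figure D4:**
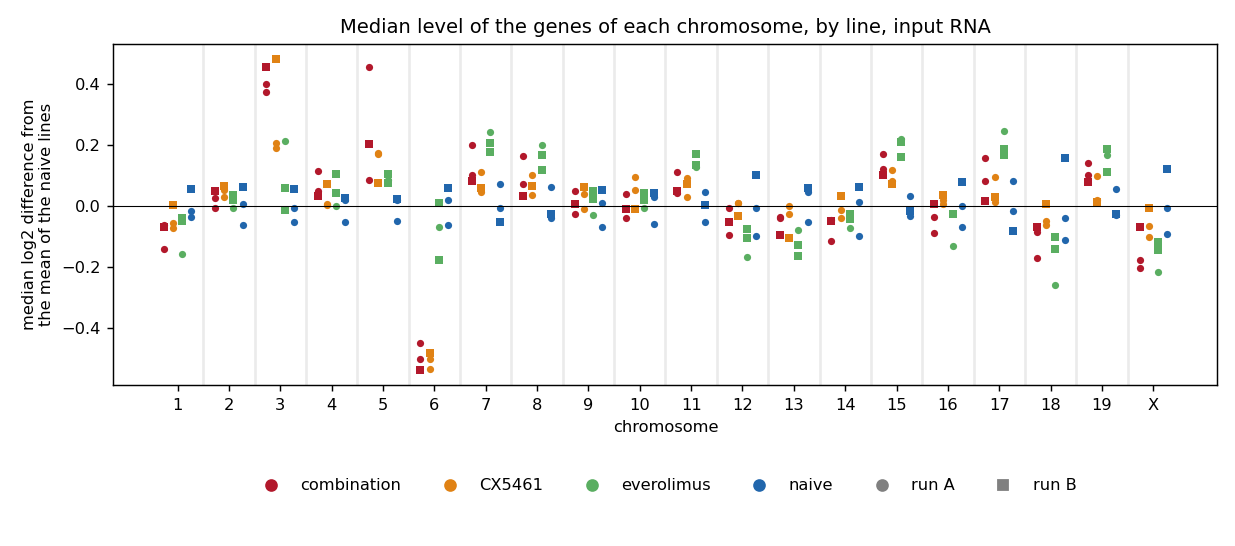
Median log2 difference of the genes of each chromosome from the mean of the naive lines, 1 point per line, with combination, CX5461, everolimus and naive lines from left to right within each chromosome and the run as the marker shape. Chromosome 6 is low in all 3 combination and all 3 CX5461 lines, chromosome 3 is high in all 3 combination lines, and chromosome 5 is high in combination line 9.

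CX5461 lines 14, 20 and 39 had chromosome 6 medians of -0.50, -0.48 and -0.53, and everolimus lines 4, 12 and 26 had -0.18, -0.07 and 0.01. On chromosome 3 the CX5461 lines had 0.21, 0.48 and 0.19 and the everolimus lines 0.06, 0.21 and -0.01. Chromosome 5 differed within the combination group, at 0.09, 0.45 and 0.20 in lines 8, 9 and 31, against 0.02, 0.02 and -0.05 in the naive lines. After removal of the GC trend the chromosome 5 medians were 0.00, 0.40 and 0.21 in lines 8, 9 and 31, against 0.10, 0.01 and -0.11 in the naive lines, and line 8 lay within the naive range. Without line 9 the median log2 fold change of chromosome 5 was 0.14, against 0.26 with it. The next largest difference between group means was -0.16, on chromosome X, where the groups overlapped. In polysomal RNA of the same lines the medians were -0.54, -0.48 and -0.58 on chromosome 6 and 0.39, 0.37 and 0.39 on chromosome 3 in the combination lines, against -0.01, 0.00 and 0.01 and 0.00, -0.03 and 0.02 in the naive lines.

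Along the chromosomes the shift was broad. In each of 10 windows of 15 Mb on chromosome 6 the 3 combination lines were below the 3 naive lines. On chromosome 3 the genes between 75 and 120 Mb (236 genes) had medians of 0.57, 0.50 and 0.49 in combination lines, against 0.02, 0.03 and -0.06 in naive lines, and 96 of them were called higher. In the same stretch CX5461 lines had 0.54, 0.58 and 0.50 and everolimus lines 0.23, 0.42 and 0.13. Before 75 Mb (119 genes) the medians were 0.09, 0.19 and 0.35 in combination lines, against 0.14, -0.08 and -0.04 in naive lines, an overlap. After removal of each library's GC trend they were 0.34, 0.38 and 0.52 in combination lines, against 0.13, -0.01 and -0.09 in naive lines, without overlap. On chromosome 5 the end from 120 Mb (246 genes) had 0.20, 0.55 and 0.54 in combination lines, against -0.05, 0.08 and -0.02 in naive lines. After removal of the GC trend these were 0.04, 0.43 and 0.53 in combination lines, against 0.07, 0.02 and -0.10 in naive lines, so that line 8 lay within the naive range. These borders were set after the values were seen. DNA copy number was not measured, and a change in it cannot be told apart here from a change in transcription.

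**Figure D5:**
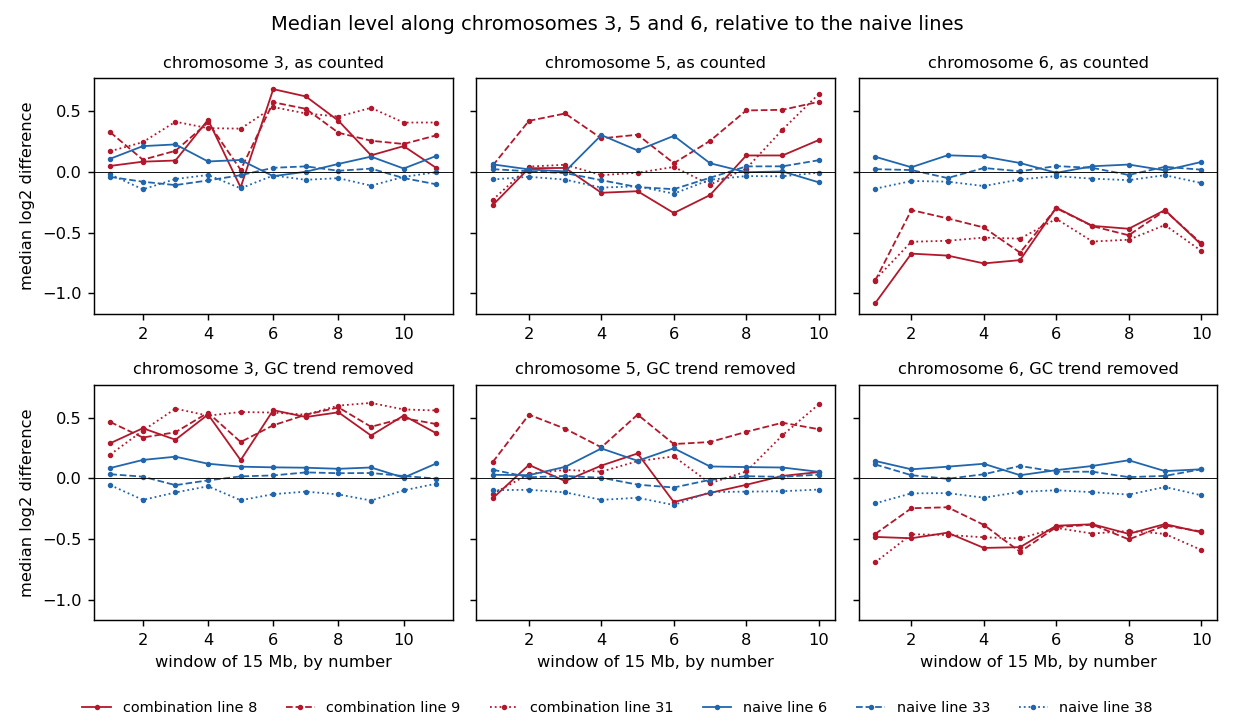
Median log2 difference from the mean of the naive lines in windows of 15 Mb along chromosomes 3, 5 and 6, 1 line per library, with combination libraries in red and naive libraries in blue, as counted (top) and after removal of each library's GC trend (bottom). Combination lines run below naive lines along all of chromosome 6, and on chromosome 5 line 9 runs highest of the combination lines before 120 Mb.

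Against the single-drug lines the combination lines differed at few genes. Against CX5461 lines 3 of 14474 genes were called (0.0207% of the genes tested), Adm, the stannin gene Snn and the membrane protease gene St14. Snn had 61.9, 72.5 and 64.7 CPM in combination and 19.7, 32.1 and 21.6 CPM in CX5461 lines, a log2 fold change of 1.44 ± 0.16 (SE; adjusted p = 0.0105). St14 had 21.4, 20.3 and 17.3 CPM in combination and 42.0, 36.9 and 42.7 CPM in CX5461 lines, a log2 fold change of -1.04 ± 0.12 (SE; adjusted p = 0.0105). For neither gene did the groups overlap. Against everolimus lines 104 genes were called (0.719%), 37 higher and 67 lower in combination lines, and 30 of the 67 lie on chromosome 6. Leaving out any 1 of the 6 lines compared gave 3 to 48 calls against everolimus lines, and 0 to 51 against CX5461 lines, with 51 without CX5461 line 20. A count this small does not show that combination and CX5461 lines are alike. Between CX5461 and naive lines 1211 genes were called, and 882 of the 1956 were called there in the same direction. Between everolimus and naive lines 1694 genes were called, and 895 of the 1956 were called there in the same direction. All these comparisons share the naive libraries.

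Between combination and everolimus lines, Prg3 (log2 fold change -3.99 ± 0.50 SE, adjusted p = 0.00709), Ccnd2 (log2 fold change -4.70 ± 0.80 SE, adjusted p = 0.0295), Lgr5 (log2 fold change 2.18 ± 0.27 SE, adjusted p = 0.00709), Spry1 (log2 fold change 3.32 ± 0.55 SE, adjusted p = 0.0295), Pde8a (log2 fold change -2.52 ± 0.44 SE, adjusted p = 0.0301) and Spib (log2 fold change -1.33 ± 0.23 SE, adjusted p = 0.0301) were among the called genes. Prg3 had 0.781, 0.468 and 0.852 CPM in combination, 11.5, 3.72 and 18.2 CPM in everolimus and 1.32, 1.27 and 1.04 CPM in CX5461 lines. Lgr5 had 25.4, 29.4 and 32.6 CPM in combination, 7.91, 5.11 and 6.38 CPM in everolimus and 29.3, 38.5 and 25.7 CPM in CX5461 lines. For both genes the combination and CX5461 lines were near each other and the everolimus lines apart. The log2 fold change between combination and CX5461 lines was -0.80 ± 0.52 (SE; adjusted p = 0.688) for Prg3 and -0.09 ± 0.25 (SE; adjusted p = 0.936) for Lgr5.

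In polysomal RNA of the same lines, which is another readout and not another set of animals, 1480 of 14797 genes were called between combination and naive lines (10% of the genes tested). Without any 1 of the 6 lines the count was 460 to 981, lowest without naive line 38. By the level of Gm9341, the polysomal libraries of combination line 8 and naive lines 33 and 38 were in run B. Those of combination lines 9 and 31 and naive line 6 were in run A, so the runs were uneven between the groups. With the run as a term the count was 1049. The fractions come from the same lines, so the 2 comparisons are not independent. Spry1 had 6.48, 15.2 and 4.24 CPM in polysomal RNA of combination lines and 0.326, 0.2 and 0 CPM in that of naive lines (log2 fold change 5.51 ± 0.83 SE, adjusted p = 0.00427). Rag1 had 207, 159.6 and 121 CPM in polysomal RNA of combination lines and 15.2, 14.1 and 18.9 CPM in that of naive lines (log2 fold change 3.34 ± 0.34 SE, adjusted p = 0.0011). Rnf43 had 0.0668, 0.105 and 0.14 CPM in polysomal RNA of combination lines and 90.3, 79.4 and 71.5 CPM in that of naive lines (adjusted p = 0.0142). The groups did not overlap for any of these 3 genes. All 12 of the largest rises and 11 of the 12 largest falls were called in polysomal RNA, the exception being Arsi (adjusted p = 0.0914). Some smaller changes were not, among them Mki67 (log2 fold change -0.46 ± 0.31 SE, adjusted p = 0.397), Hsp90b1 (log2 fold change -0.36 ± 0.37 SE, adjusted p = 0.609) and Rpl23 (log2 fold change -0.33 ± 0.36 SE, adjusted p = 0.642), and whether the fractions differ at these genes was not tested.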

How the data were processed

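Cytoplasmic (input) and polysomal RNA of the relapse lines was depleted of ribosomal RNA and sequenced on an Illumina HiSeq2500 in single reads of 50 bases, per the labels' protocols. The authors deposited raw counts per gene symbol. Reads were aligned to GRCm38 with TopHat2 and counted with HTSeq, per the submitters' processing notes, while versions, annotation and strand setting were not given in the sources used here. Without a strand setting, overlapping and antisense genes may share reads. Groups came from the titles of the samples.

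From these counts, 14474 of 35556 genes passed edgeR's filterByExpr (edgeR 4.0.16, R 4.3.3). All 12 relapse input libraries (14566897 to 26016328 counts each) were fitted together, 4 groups of 3 lines, with TMM scaling and the quasi-likelihood test. Adjusted p-values are Benjamini-Hochberg over all genes tested, with a threshold of 0.05. SE is the log2 fold change divided by the root of its F value. The 12 polysomal libraries were fitted in the same way, and the 6 used here held 15528791 to 22283405 counts each. Log2 CPM used a prior count of 2. Intervals of count ratios and all depths cover counting error only. Symbols, positions and transcript GC content came from a GRCm38 annotation, with symbols of more than 1 gene left without position. The 27 symbols that a spreadsheet had turned into dates were not named.

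Named were the 12 largest rises and falls among called genes with groups apart and a mean log2 CPM of at least 1, up to 4 called members of each list in each direction, and a set of drug and lymphoma genes whatever their result. Some list members beyond these are named where all called members are given. The members, lists and tests were chosen with earlier results of these data known. The pipeline was tested on simulated counts. Alternatives were RLE scaling, no filter, DESeq2 1.42.0, the 6 compared libraries alone, the run as a term and each line left out. A GC offset for each library, run A alone and a polysomal fit without CX5461 lines 14 and 39 were chosen after seeing the data. The acute study in mice was not used here.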

Additional observations from a re-analysis of the deposited data

How the results depend on the processing

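No paired analysis was possible because the groups compared share no line number. The count of 1956 genes called between combination and naive lines was 1972 with RLE scaling, 2262 without a filter and 2571 with DESeq2. It was 1224 with the 6 libraries fitted alone, 3666 with the run as a term, 1289 with a GC offset and 3052 in run A alone, and ranged from 766 (without combination line 9) to 1892 (without combination line 31) when 1 line was left out. Without combination line 8 it was 946, and without naive lines 6, 33 and 38 it was 1207, 1177 and 1367. With RLE scaling 979 were higher and 993 lower.

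The 104 calls against everolimus lines became 474 without a filter, 445 with DESeq2, 7 with the 6 libraries alone and 497 with the run as a term, and 3 to 48 when 1 line was left out. The 3 calls against CX5461 lines became 197 without a filter, 36 with DESeq2, 0 with the 6 libraries alone and 5 with the run as a term, and 0 to 51 when 1 line was left out. The 1480 polysomal calls became 949 without a filter, 2384 with DESeq2, 3141 with the 6 libraries alone and 1049 with the run as a term. They became 3274 without CX5461 lines 14 and 39, and 460 to 981 when 1 line was left out. The cause of these shifts was not tested.

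The naming rules picked 168 genes called between combination and naive lines, and none of these changed direction under any alternative. They were picked by their calls in the same libraries, so this is not separate support. Further list members named above, such as Egr1 and Foxm1, are not in this tally. DESeq2 lost 1 of the 168 calls, RLE scaling 3, no filter 20 and the 6 libraries alone 62. Run A alone lost 12, the run term 0 and the GC offset 63, and leaving out 1 line lost 30 to 91. With 3 lines from 1 clone per group, small changes were often not detectable at this depth, and genes under about 1 CPM rest on few counts.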

Other observations

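Among 33 tested genes of sterol and fatty acid synthesis 2 rose and 1 fell, and 1 of the 2 rises lies on chromosome 3. Fdps was higher in combination lines (log2FC 0.59) and Idi1 was lower (log2FC -0.55), and neither call was kept in every fit without 1 line. Among 7 tested plasma cell genes, Mzb1, a chaperone of immunoglobulin assembly, had 81.5, 74.0 and 66.6 CPM in combination and 92.8, 178 and 153 CPM in naive lines, a log2 fold change of -0.93 ± 0.20 (SE; adjusted p = 0.0108). In the lysosome list, Ctsb (log2FC -0.49), Glb1 (log2FC -0.48) and Psap (log2FC -0.46) fell along with Hexa.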
